A study of Mus musculus with 6 samples.

Results

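The ADAMTS proteases are secreted zinc metalloproteases that carry a disintegrin-like module and thrombospondin type 1 repeats. The 9 genes described here, Adamts1, Adamts2, Adamts4, Adamts5, Adamts7, Adamts9, Adamts10, Adamts12 and Adamts15, were chosen by name and linked to the counts by their gene identifier. All 9 were found among the 49671 genes of the count table, and all 9 were among the 15197 genes that passed the filter on low values, 0.5 CPM (counts scaled to a fixed library total) or more in 2 or more libraries.

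The cells were primary murine pancreatic stellate cells (PSCs), the fibroblast-like cells of the pancreatic stroma, from C57BL6/J WT mice. They were kept for 120 h in DMEM/Ham F12 with serum on plastic dishes, at an extracellular pH (pHe) of 6.6 or of 7.4. The medium pH was set through the amount of sodium bicarbonate, so pHe and bicarbonate differed together and cannot be told apart. Each pHe had 3 libraries, labelled A, B and C, which the labels call biological replicates, and poly(A) RNA was sequenced. The question behind the comparison was how PSCs respond to an acidic environment, and each value at pHe6.6 is set against pHe7.4.

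ADAMTS proteases are made as proenzymes, are activated by proprotein convertases such as furin, and act in the extracellular matrix. Some cut large aggregating proteoglycans such as versican and aggrecan, some remove the amino-terminal propeptide of fibrillar procollagens, and others are tied to fibrillin microfibrils or to cartilage oligomeric matrix protein. In the stroma of the pancreas, fibroblast-like cells are a main source of such matrix and of the enzymes that remodel it. The related ADAMTS-like proteins share the thrombospondin repeats but have no protease domain.

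What makes a member of this family a protease is its reprolysin-type zinc-binding motif, in which 3 histidines hold the catalytic zinc. The coding sequence of that motif is shown for all 9 genes because the ADAMTS-like genes, described further on, lack it. Each stretch has 33 bases, read 5′ to 3′ from the GENCODE transcripts of release vM21 (GRCm38, the assembly also called mm10), and capitals mark the 3 histidine codons. In every gene an intron splits the stretch, so each genomic interval runs over that intron.
Adamts1 (chr16:85799191-85799545, minus strand): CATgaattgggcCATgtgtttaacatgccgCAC
Adamts2 (chr11:50775403-50776134, plus strand): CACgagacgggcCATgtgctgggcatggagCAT
Adamts4 (chr1:171253210-171253915, plus strand): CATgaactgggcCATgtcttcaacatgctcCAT
Adamts5 (chr16:85878015-85887826, minus strand): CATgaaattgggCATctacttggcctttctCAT
Adamts7 (chr9:90179456-90180640, plus strand): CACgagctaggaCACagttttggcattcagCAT
Adamts9 (chr6:92905285-92908493, minus strand): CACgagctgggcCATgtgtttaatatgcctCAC
Adamts10 (chr17:33538157-33538279, plus strand): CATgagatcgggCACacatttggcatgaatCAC
Adamts12 (chr15:11241529-11255564, plus strand): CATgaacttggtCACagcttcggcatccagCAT
Adamts15 (chr9:30911255-30911690, minus strand): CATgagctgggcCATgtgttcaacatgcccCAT

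The 9 stretches had 17 to 30 of 33 bases identical over the 36 pairs. Adamts4 and Adamts15 were the most alike, with 30 identical bases, and Adamts9 and Adamts12 the least, with 17. Adamts1, Adamts4, Adamts9 and Adamts15 formed a group with 25 to 30 identical bases in each pair, and Adamts7 and Adamts12 had 26. Adamts5 had 18 to 22 identical bases with any other gene. The motif was present in 0 of the 7 ADAMTS-like genes that were searched. No exonic stretch of 75 bases was shared between any of the 9 genes, so exactly matching reads of that length belong to 1 of them only.

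At pHe6.6, Adamts5, Adamts2 and Adamts1 were higher, Adamts10 and Adamts4 were lower, and Adamts12, Adamts15, Adamts7 and Adamts9 did not pass the test. Calls rest on the quasi-likelihood test of edgeR at an adjusted p (Benjamini-Hochberg) under 0.05 across the 15197 genes. Thus 3 of 9 genes were called higher, where 26.4% of all genes tested were called higher, and 2 of 9 were called lower, where 25.9% of all genes were called lower. The libraries of both pHe values did not overlap for 6 of the 9 genes, against 63.2% of all genes tested. The median log2 fold change (pHe6.6 over pHe7.4 throughout) was 0.23 for the 9 genes and -0.011 for all genes. With so many genes called, the counts of the family stood close to those of the table as a whole.

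**Figure D1:**
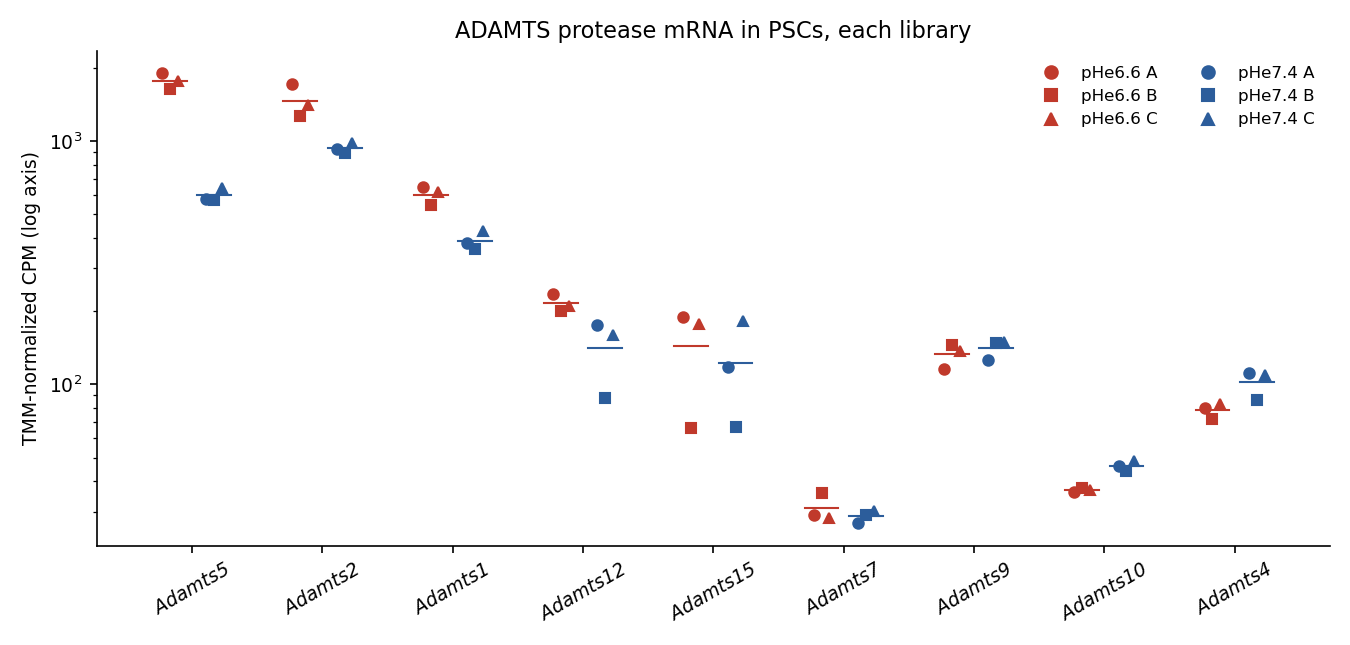
TMM-normalized CPM (log axis) of the 9 ADAMTS genes in each library, with pHe6.6 in red left of pHe7.4 in blue, symbols for the libraries A, B and C, and horizontal lines for the mean of 3 libraries. Genes run by their log2 fold change: the pHe6.6 libraries of Adamts5 lie between 1633 and 1898 CPM, all above the pHe7.4 libraries, while those of Adamts15 spread over both groups.

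The libraries held 28904761 to 38331877 counts in genes, and the 9 ADAMTS genes had between 856 and 58498 counts in any one library. The 11 fibroblast and stellate cell markers summed to 37561 to 40516 CPM at pHe6.6, against 38662 to 48782 CPM at pHe7.4, with 6 called higher, 1 lower (Col1a1) and 4 not called. Pdgfra was among those higher, with a mean of 1780 CPM at pHe6.6, against 856 CPM at pHe7.4, while Acta2 had a log2 fold change of -0.55 and was not called. The 16 mesothelial markers summed to 282 to 703 CPM at pHe6.6, against 1632 to 1734 CPM at pHe7.4, 2 of them being called higher and 11 lower at pHe6.6. The 6 endothelial markers summed to 15.0 to 28.1 CPM at pHe6.6, against 41.7 to 53.4 CPM at pHe7.4, with 1 called higher and 5 lower. The 14 macrophage markers summed to 596 to 1111 CPM at pHe6.6, against 556 to 844 CPM at pHe7.4, with 4 higher and 1 lower. The 9 acinar and ductal markers summed to 36.2 to 138 CPM at pHe6.6, against 186 to 304 CPM at pHe7.4, with 1 of 7 tested called lower and 6 not called. The 7 pericyte and smooth muscle markers summed to 425 to 484 CPM at pHe6.6, against 273 to 304 CPM at pHe7.4, although 1 was called higher and 3 lower. The 5 Schwann cell markers summed to 0.52 to 1.05 CPM at pHe6.6, against 1.11 to 1.69 CPM at pHe7.4, with 1 tested and called lower. The 4 B cell markers summed to 8.92 CPM in pHe6.6 C and to 0.034 to 0.18 CPM in the other 5 libraries. None of these markers was at 0 in all 6 libraries, and their part in the ADAMTS results was not tested. In such bulk libraries, fewer cells of a type and less RNA per cell cannot be told apart.

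Adamts5, one of the main aggrecan-cutting enzymes (aggrecanases) of mouse cartilage, showed the largest change of the 9. Its gene lies at chr16:85856173-85901828 on the minus strand. It had 1898, 1633 and 1762 CPM in the pHe6.6 libraries A, B and C, against 577, 572 and 643 CPM in the pHe7.4 libraries. Every pHe6.6 library stood above every pHe7.4 library by a wide margin. Adamts5 was 2.95-fold higher at pHe6.6 (log2 fold change 1.56 ± 0.09, SE, n = 3 each; edgeR adjusted p = 2.3e-05), and 96.4% of all genes tested had a smaller log2 fold change. Leaving out each library in turn kept the log2 fold change between 1.51 and 1.62.

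Adamts1 is the chromosomal neighbour of Adamts5, with 53060 bp between both genes. It cuts versican and is needed for ovulation in mice. The gene spans chr16:85793827-85803113 on the minus strand. Adamts1 had 644, 548 and 616 CPM in the pHe6.6 libraries A, B and C, against 381, 360 and 428 CPM in the pHe7.4 libraries. The groups did not overlap. It was 1.55-fold higher at pHe6.6 (log2 fold change 0.63 ± 0.10, SE, n = 3 each; edgeR adjusted p = 0.0012). The neighbours thus moved the same way by different amounts. The log2 ratio of Adamts5 to Adamts1 counts, which does not depend on scaling, was 1.56, 1.58 and 1.52 in the pHe6.6 libraries, against 0.60, 0.67 and 0.59 in the pHe7.4 libraries. Its mean was 0.93 higher at pHe6.6 (two-sided exact permutation p = 0.1, the smallest that 3 against 3 libraries allow; 0.125 adjusted over the 5 gene pairs compared).

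Adamts2, the main enzyme that removes the amino-terminal propeptide of type I procollagen, spans chr11:50602084-50807573 on the plus strand. It had 1711, 1266 and 1399 CPM in the pHe6.6 libraries A, B and C, against 927, 889 and 981 CPM in the pHe7.4 libraries. The lowest pHe6.6 library, B, was still above the highest pHe7.4 library. Adamts2 was 1.56-fold higher at pHe6.6 (log2 fold change 0.65 ± 0.12, SE, n = 3 each; edgeR adjusted p = 0.0031). Tested against a minimum log2 fold change of 0.58 rather than 0, Adamts5 alone of the 9 genes passed, so the changes of Adamts1 and Adamts2 were not shown to exceed that size.

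Upstream sequences of Adamts1 and Adamts2 are shown because both genes are called higher at pHe6.6 by a like amount. They are the 250 bases before the start of each gene in RefSeq (GRCm38.p6), written 5′ to 3′ on the gene's strand. The promoter table matched 4 of the 9 genes, Adamts1, Adamts2, Adamts9 and Adamts12. The windows were searched on both strands for 7 motifs, and capitals mark the matches, which were all to the GC box or the TATA box and did not overlap each other.
Adamts1 (chr16:85803114-85803363, minus strand): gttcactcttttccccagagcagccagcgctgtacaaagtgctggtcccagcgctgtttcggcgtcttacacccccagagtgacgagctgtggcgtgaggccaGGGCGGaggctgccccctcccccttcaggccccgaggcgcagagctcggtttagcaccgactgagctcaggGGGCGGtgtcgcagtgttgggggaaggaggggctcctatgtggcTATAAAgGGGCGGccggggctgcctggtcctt
Adamts2 (chr11:50601835-50602084, plus strand): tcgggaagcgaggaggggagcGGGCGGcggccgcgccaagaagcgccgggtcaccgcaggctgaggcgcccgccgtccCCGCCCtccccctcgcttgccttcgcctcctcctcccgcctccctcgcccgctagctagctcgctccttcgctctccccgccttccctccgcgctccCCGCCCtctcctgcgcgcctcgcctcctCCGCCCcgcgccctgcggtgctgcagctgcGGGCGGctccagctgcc

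The window of Adamts1 held 3 GC boxes and a TATA box that began 32 bases before the start, and the window of Adamts2 held 5 GC boxes and no TATA box. The window of Adamts9 held 1 GC box and that of Adamts12 matched none of the motifs. Among 32851 promoter windows of the same length in RefSeq, 32.7% held a GC box (GGGCGG) and 12.4% a TATA box (TATAAA). The motifs with no match in the 4 windows were the CCAAT box (CCAAT), in 33.8% of all windows, AP-1 (TGANTCA), in 6.75%, CRE (TGACGTCA), the cyclic AMP response element, in 1.55%, TEAD (GGAATG), in 12.6%, and the STAT motif GAS (TTCNNNGAA), in 7.02%. These matches describe the letters of the windows and not sites in use.

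Adamts4, the other main aggrecanase, lies at chr1:171250421-171260637 on the plus strand. It had 79.8, 72.2 and 83.1 CPM in the pHe6.6 libraries A, B and C, against 111, 86.0 and 109 CPM in the pHe7.4 libraries. The groups did not overlap, but the pHe7.4 B library was close to the highest pHe6.6 library. Adamts4 was lower at pHe6.6 (log2 fold change -0.38 ± 0.11, SE, n = 3 each; edgeR adjusted p = 0.020). The call was lost without pHe6.6 B (adjusted p = 0.056), without pHe7.4 A (0.064) or without pHe7.4 C (0.070), and adjusted p ran between 0.0029 and 0.070 when each library was left out in turn. Both aggrecanases therefore moved in opposite directions. The log2 ratio of Adamts4 to Adamts5 counts was -4.57, -4.50 and -4.41 in the pHe6.6 libraries, against -2.37, -2.73 and -2.56 in the pHe7.4 libraries. The mean difference was -1.94, or 3.83-fold (two-sided exact permutation p = 0.1, adjusted 0.125).

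Adamts10 binds fibrillin microfibrils, and mutations of the human gene cause Weill-Marchesani syndrome. It lies at chr17:33524204-33553782 on the plus strand. It had 36.0, 37.4 and 36.7 CPM in the pHe6.6 libraries A, B and C, against 46.2, 44.2 and 48.3 CPM in the pHe7.4 libraries. The libraries of each group were close together and the groups did not overlap. Adamts10 was lower at pHe6.6 (log2 fold change -0.34 ± 0.06, SE, n = 3 each; edgeR adjusted p = 0.0033), a small change with a small error. Leaving out each library in turn gave log2 fold changes between -0.37 and -0.31, all called.

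Adamts12 and Adamts7 form a pair of related proteases that carry a mucin-like module and cut cartilage oligomeric matrix protein. Adamts12, at chr15:11064790-11349231 on the plus strand, had 235, 200 and 210 CPM in the pHe6.6 libraries A, B and C, against 176, 87.9 and 160 CPM in the pHe7.4 libraries. The groups did not overlap, and pHe7.4 B stood far below the other libraries of its group. The log2 fold change was 0.61 ± 0.25 (SE, n = 3 each; 95% interval -0.0084 to 1.22; edgeR adjusted p = 0.088), so Adamts12 was not called. Without pHe7.4 B the log2 fold change was 0.35 and adjusted p = 0.018. With the DESeq2 test adjusted p was 0.013, and over all alternatives adjusted p ran between 0.0085 and 0.71.

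Adamts7, at chr9:90163069-90208071 on the plus strand, had 29.0, 35.7 and 28.1 CPM in the pHe6.6 libraries A, B and C, against 26.9, 29.0 and 30.2 CPM in the pHe7.4 libraries. The groups overlapped. The log2 fold change was 0.11 ± 0.10 (SE, n = 3 each; 95% interval -0.13 to 0.35; edgeR adjusted p = 0.40). Its sign turned when library totals alone set the scale (-0.063), a scaling that moved the median of all genes to -0.18. The log2 ratio of Adamts12 to Adamts7 counts averaged 2.80 ± 0.28 at pHe6.6, against 2.24 ± 0.57 at pHe7.4 (SD, n = 3 each; two-sided exact permutation p = 0.2).

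Adamts9, a conserved protease with a terminal GON module that cuts versican, lies at chr6:92772699-92943492 on the minus strand. It had 116, 145 and 137 CPM in the pHe6.6 libraries A, B and C, against 126, 148 and 149 CPM in the pHe7.4 libraries. The groups overlapped, with the A library the lowest in each. The log2 fold change was -0.089 ± 0.10 (SE, n = 3 each; 95% interval -0.33 to 0.15; edgeR adjusted p = 0.50), and its sign turned without pHe6.6 A (0.0071). The log2 ratio of Adamts9 to Adamts1 counts averaged -2.19 ± 0.28 at pHe6.6, against -1.47 ± 0.17 at pHe7.4 (SD, n = 3 each; two-sided exact permutation p = 0.1, adjusted 0.125).

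Adamts15, a relative of Adamts1 and Adamts4 that can cut versican and aggrecan, lies at chr9:30899155-30922452 on the minus strand. It had 189, 66.3 and 176 CPM in the pHe6.6 libraries A, B and C, against 118, 67.0 and 181 CPM in the pHe7.4 libraries. The B library was the lowest in both groups, at nearly the same level, and the groups overlapped over their whole range. The log2 fold change was 0.23 ± 0.50 (SE, n = 3 each; 95% interval -1.01 to 1.48; edgeR adjusted p = 0.72), the widest interval among the 9 genes. The sign turned without pHe6.6 A (-0.011) or without pHe7.4 B (-0.062). Without both B libraries, a choice made after seeing these values, the log2 fold change was 0.28 with adjusted p = 0.38. Relative spread within a group was 46.9% of the mean at either pHe for Adamts15, while for Adamts10 it was 1.9% at pHe6.6 and 4.4% at pHe7.4. The log2 ratio of Adamts15 to Adamts5 counts averaged -3.76 ± 0.75 at pHe6.6, against -2.40 ± 0.64 at pHe7.4 (SD, n = 3 each; two-sided exact permutation p = 0.1, adjusted 0.125).

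**Figure D2:**
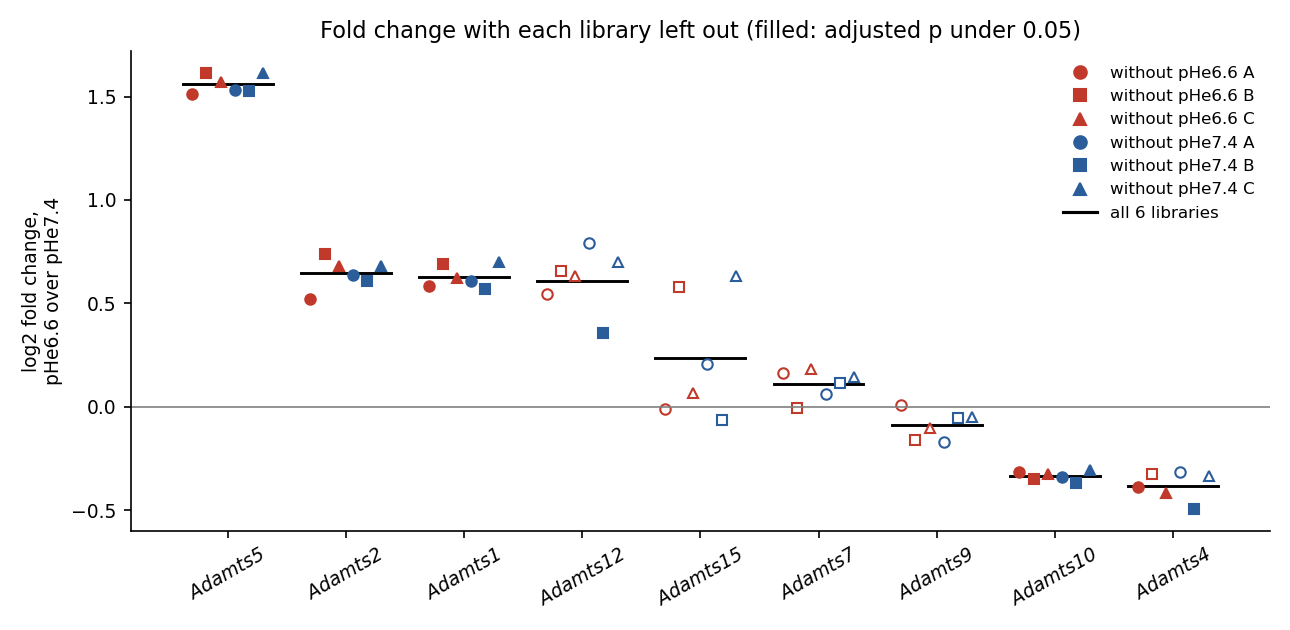
Log2 fold change (pHe6.6 over pHe7.4) of the 9 ADAMTS genes with all 6 libraries (black lines) and with each library left out (symbols, coloured by the pHe of that library). Filled symbols have an edgeR adjusted p under 0.05: Adamts5 stays between 1.51 and 1.62, Adamts4 has 3 open symbols, and Adamts15 runs between -0.062 and 0.63.

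Adamts7 and Adamts9 share exonic sequence with genes on the opposite strand. Of the 75-base exonic stretches of Adamts7, 0.769% also lie in Tbc1d2b. For Adamts9 the share was 9.71%, in A730049H05Rik and Gm15737. The libraries came from a directional kit, but the strand setting of the counting was not given in the sources used here, and without strand such reads cannot be told apart. The log2 fold change was -0.37 for Tbc1d2b and -0.71 for A730049H05Rik, both called lower at pHe6.6 (edgeR adjusted p = 0.023 and 0.030).

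To compare levels between genes, CPM was divided by the kilobases of exon of each gene. On this scale Adamts5, Adamts2 and Adamts1 dominated at both pHe values, in a different order. At pHe6.6 the mean levels were 164 for Adamts5, 156 for Adamts2 and 114 for Adamts1, against 55.3, 99.8 and 73.5 CPM per kilobase for the same genes at pHe7.4. At pHe6.6, Adamts5 and Adamts2 overlapped between libraries, and both stood above Adamts1. At pHe7.4, Adamts2 was above Adamts1 and Adamts1 above Adamts5, with no overlap between neighbours in that order.

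The other 6 genes were lower by far. At pHe6.6 the order went on with Adamts12 (19.7 CPM per kilobase), Adamts4 (16.3), Adamts15 (13.9), Adamts9 (8.81), Adamts7 (4.93) and Adamts10 (4.44). In that group Adamts4 overlapped with Adamts15, Adamts15 with Adamts9, and Adamts7 with Adamts10. At pHe7.4 Adamts4 came first of these 6 (21.2 CPM per kilobase), followed by Adamts12 (12.9), Adamts15 (11.8), Adamts9 (9.37), Adamts10 (5.60) and Adamts7 (4.57). Here Adamts12 overlapped with Adamts15 and Adamts15 with Adamts9. The order of these 6 genes depended on the length used. With the longest transcript in place of all exons, Adamts15 (24.3 CPM per kilobase) stood above Adamts4 (17.9) at pHe6.6. Adamts10 (8.90) then stood above Adamts7 (5.75) at pHe6.6. At pHe7.4 Adamts12 (16.4) then stood below Adamts15 (20.6) and Adamts9 (17.6).

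Summed over the 9 genes, the level was 501 ± 51.9 CPM per kilobase at pHe6.6, against 294 ± 26.3 CPM per kilobase at pHe7.4 (SD, n = 3 each). Adamts5 made up 31.8 to 33.6% of this sum at pHe6.6, against 18.2 to 19.8% at pHe7.4. Adamts4 made up 3.0 to 3.4% at pHe6.6, against 6.7 to 7.9% at pHe7.4. The share of Adamts1 was 21.9 to 23.2% at pHe6.6, against 24.5 to 25.3% at pHe7.4, and that of Adamts2 was 29.9 to 33.1% at pHe6.6, against 32.7 to 35.5% at pHe7.4. Adamts5 was the only one of the 9 genes whose mean share was larger at pHe6.6, with either length used, while Adamts1 and Adamts2 took smaller mean shares there although their levels were higher. With the length of the longest transcript in place of all exons, the mean share of Adamts5 was 28.0% at pHe6.6, against 15.5% at pHe7.4, and Adamts2 was the highest gene at either pHe. These levels are a description with no test.

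**Figure D3:**
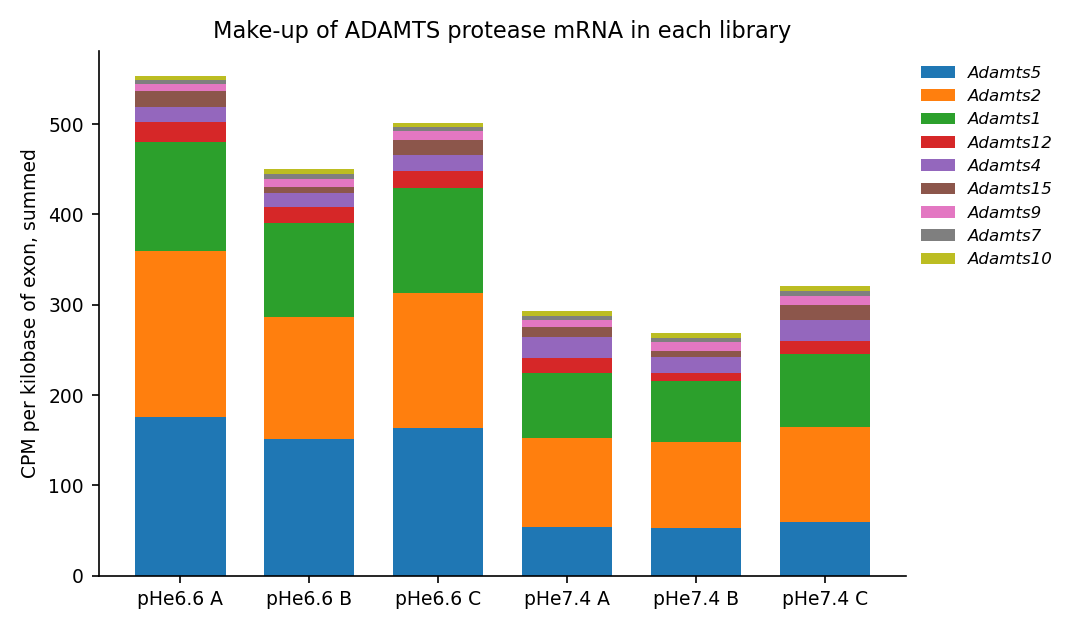
Summed CPM per kilobase of exon of the 9 ADAMTS genes in each library, stacked by gene, with the pHe6.6 libraries left of the pHe7.4 libraries. The sum averages 501 at pHe6.6, against 294 at pHe7.4, and the Adamts5 segment at the base of each bar makes up 31.8 to 33.6% of it at pHe6.6, against 18.2 to 19.8% at pHe7.4.

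The 10 remaining ADAMTS genes of the mouse were scarce in these cells. Of these, 6 passed the filter on low values, 1 being called higher and 3 lower at pHe6.6. The shares over all genes tested were 26.4% higher and 25.9% lower. Adamts8, which lies 20110 bp from Adamts15 and is related to it, had 2.07, 3.16 and 2.17 CPM in the pHe6.6 libraries, against 1.21, 1.05 and 1.12 CPM in the pHe7.4 libraries. It was higher at pHe6.6 (log2 fold change 1.13 ± 0.24, SE, n = 3 each; edgeR adjusted p = 0.0058). The neighbouring Adamts15 was not called, and the difference between both was not tested. Adamts20, a relative of Adamts9, had 0.34 to 0.60 CPM at pHe6.6, against 1.46 to 1.75 CPM at pHe7.4 and was lower (log2 fold change -1.87, edgeR adjusted p = 0.0013). Adamts16 was lower by more, with 0.10 to 0.72 CPM at pHe6.6, against 2.67 to 4.02 CPM at pHe7.4 (log2 fold change -2.91, edgeR adjusted p = 0.0024).

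Adamts3 and Adamts14 are the other procollagen amino-propeptidases beside Adamts2. Adamts3 had 8.54, 7.89 and 11.7 CPM in the pHe6.6 libraries, against 14.9, 11.2 and 18.2 CPM in the pHe7.4 libraries. These groups overlapped slightly, and Adamts3 was lower at pHe6.6 (log2 fold change -0.65 ± 0.22, SE, n = 3 each; edgeR adjusted p = 0.037). That call was lost without pHe6.6 A (adjusted p = 0.088), pHe6.6 B (0.094), pHe7.4 A (0.087) or pHe7.4 C (0.11), and over all alternatives adjusted p ran between 0.0059 and 0.54. Adamts14 was not called (log2 fold change -0.26, 95% interval -0.58 to 0.060), and neither was Adamts6, a relative of Adamts10 (log2 fold change -0.74, 95% interval -1.71 to 0.23). Adamts13, Adamts17, Adamts18 and Adamts19 stayed under the filter, with 0.403 CPM at most.

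Among the ADAMTS-like genes, 5 of 7 tested were called higher at pHe6.6 and 0 lower. Of all genes tested, 26.4% were called higher and 25.9% lower. The median log2 fold change of the 7 genes was 0.97. Adamtsl1 had 232, 240 and 264 CPM in the pHe6.6 libraries, against 69.9, 53.4 and 67.8 CPM in the pHe7.4 libraries, and was higher with a log2 fold change of 1.95 ± 0.11 (SE, n = 3 each; edgeR adjusted p = 2.2e-05). Adamtsl5 followed with a log2 fold change of 1.41, then Adamtsl2, which binds fibrillin and is mutated in human geleophysic dysplasia, with 0.97. Adamtsl3 and Adamtsl4 each had a log2 fold change of 0.80. Thsd4 (log2 fold change -0.82, 95% interval -1.75 to 0.105) and Papln (1.08, 95% interval -0.017 to 2.17) were not called. The count of 0 lower by edgeR was also 0 at an unadjusted p under 0.05, while DESeq2 and limma-voom each called 1 gene lower. These are the genes in which the zinc-binding motif was not found.

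**Figure D4:**
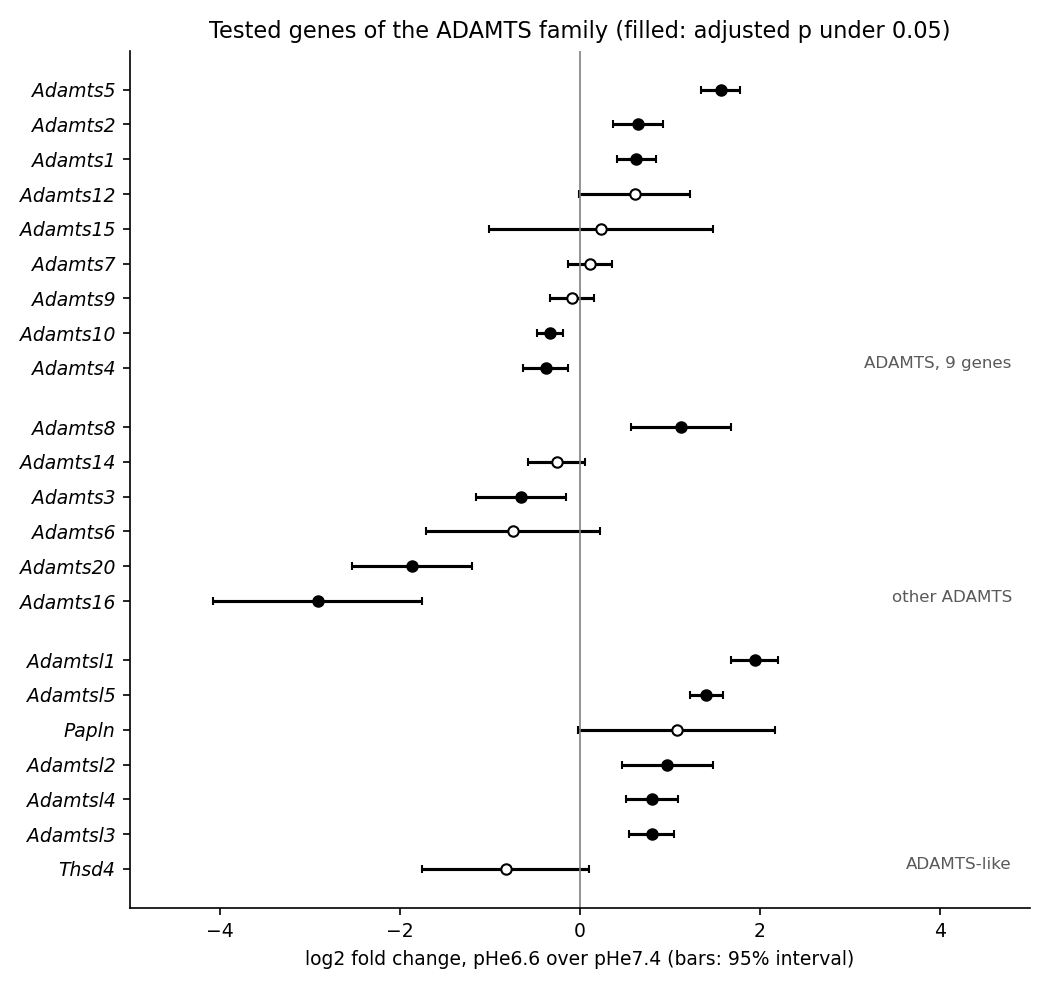
Log2 fold change (pHe6.6 over pHe7.4) with its 95% interval for the tested genes of 3 groups, the 9 ADAMTS genes at the top, 6 other ADAMTS proteases and 7 ADAMTS-like genes. Filled circles have an edgeR adjusted p under 0.05: 3 of the 9 lie above 0 and 2 below, and 5 of the 7 ADAMTS-like genes lie above 0.

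The matrix genes whose products these enzymes are known to cut moved in both directions. Counts of called genes among substrates, inhibitors and convertases stand beside shares of 26.4% higher and 25.9% lower over all genes tested. Of the hyalectans, the large proteoglycans cut by Adamts1, Adamts4, Adamts5, Adamts9 and Adamts15, Vcan (versican) was the one expressed well. It had 288, 267 and 239 CPM in the pHe6.6 libraries, against 624, 367 and 529 CPM in the pHe7.4 libraries. The groups did not overlap, and Vcan was lower at pHe6.6 (log2 fold change -0.94 ± 0.19, SE, n = 3 each; edgeR adjusted p = 0.0061). Bcan (brevican) was also lower but reached no more than 0.781 CPM, and Acan (aggrecan) and Ncan (neurocan) were too low to be tested. With 0.17 CPM at most at pHe6.6, Bcan passed the filter on low values only through its pHe7.4 libraries. Its call could therefore only be lower and is no support for a direction.

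Of the 10 tested procollagen genes and processing enzymes, 0 were called higher at pHe6.6 by edgeR and 3 lower. One of the 3 was Col2a1, with 0.057 to 0.27 CPM at pHe6.6, against 0.44 to 1.08 CPM at pHe7.4. It passed the filter on low values only through pHe7.4 libraries, so its call could only be lower. At an unadjusted p under 0.05 edgeR had 1 higher, and DESeq2 called 1 and limma-voom 0 higher. Col1a1, whose product is a substrate of Adamts2, had 6702, 8807 and 6775 CPM in the pHe6.6 libraries, against 16890, 12060 and 14799 CPM in the pHe7.4 libraries. It was lower (log2 fold change -0.97 ± 0.17, SE, n = 3 each; edgeR adjusted p = 0.0023), opposite in sign to Adamts2. Col1a2 (log2 fold change -0.13, 95% interval -0.38 to 0.13) and Col3a1 (-0.059, 95% interval -0.46 to 0.35) were not called. Bmp1, the enzyme that removes the carboxy-terminal propeptide, was not called either (log2 fold change -0.14, 95% interval -0.36 to 0.075), while its relative Tll1 was lower, at 1.25 to 5.11 CPM at pHe6.6, against 7.85 to 11.4 CPM at pHe7.4. The Tll1 call was lost without pHe6.6 C (edgeR adjusted p = 0.084), without pHe7.4 A (0.061), without pHe7.4 C (0.060) and with no filter on low values (0.10). The count of 3 lower was 1 without pHe7.4 A or without pHe7.4 C.

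Of 11 other substrates and partners, 5 were called higher and 3 lower at pHe6.6. Nid2 and Nid1 (nidogens of basement membranes, cut by Adamts1) were higher with log2 fold changes of 2.19 and 1.20. Nid2 had 4300 to 5152 CPM at pHe6.6, against 983 to 1145 CPM at pHe7.4. Dcn (decorin), Bgn (biglycan) and Sdc4 (a cell surface heparan sulfate proteoglycan) were higher too, with log2 fold changes of 1.62, 0.83 and 0.47. With library totals alone the Sdc4 call was lost (edgeR adjusted p = 0.053). Fn1 (fibronectin), Fbn2 (fibrillin) and Thbs2 (thrombospondin) were lower with log2 fold changes of -1.58, -1.08 and -1.35. The Thbs2 call was lost without pHe6.6 C (edgeR adjusted p = 0.067), without pHe7.4 A (0.058) and with no filter on low values (0.093). Comp, a substrate of Adamts7 and Adamts12, reached no more than 1.72 CPM and was not called (log2 fold change -0.71, 95% interval -1.34 to -0.084, edgeR adjusted p = 0.057).

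Inhibitors and clearance receptors were split, with 3 of 6 tested called higher and 3 lower at pHe6.6. Timp3, the main tissue inhibitor of Adamts4 and Adamts5, had 54.4, 241 and 160 CPM in the pHe6.6 libraries, against 657, 537 and 679 CPM in the pHe7.4 libraries. It was lower at pHe6.6 (log2 fold change -2.04 ± 0.52, SE, n = 3 each; edgeR adjusted p = 0.019), with a wide spread among the pHe6.6 libraries. The Timp3 call was lost without pHe6.6 C (adjusted p = 0.063), without pHe7.4 A (0.058), without both B libraries (0.055) and with no filter on low values (0.088). The pHe6.6 libraries had the same order from A to C to B in Timp3 as in the summed mesothelial markers, which were 282, 576 and 703 CPM. The endothelial sum and the acinar and ductal sum had that order too, and the other marker sums did not. Any link to Timp3 was not tested. Timp1 (log2 fold change -1.07) and A2m, a plasma-type protease trap (-4.37), were lower as well.

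Reck, a membrane-anchored inhibitor of metalloproteases, went the other way, with 116 to 135 CPM at pHe6.6, against 36.2 to 42.2 CPM at pHe7.4 (log2 fold change 1.70 ± 0.09, SE, n = 3 each; edgeR adjusted p = 1.2e-05). Lrp1, the endocytic receptor that clears Adamts4, Adamts5 and Timp3 from the matrix, was higher with a log2 fold change of 0.64, and Timp2 with 0.44. The Timp2 call was lost without pHe6.6 A (edgeR adjusted p = 0.052), without pHe6.6 C (0.058) and with library totals alone (0.13). The genes for inhibitors thus did not move as a block.

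Among the 4 proprotein convertases, which activate the ADAMTS proenzymes, 1 was called higher and 2 lower at pHe6.6. Pcsk6 had 456, 416 and 350 CPM in the pHe6.6 libraries, against 81.5, 115 and 90.6 CPM in the pHe7.4 libraries, and was higher (log2 fold change 2.09 ± 0.15, SE, n = 3 each; edgeR adjusted p = 6.4e-05). Pcsk5 (log2 fold change -1.21) and Pcsk7 (-0.27) were lower, and Furin was not called (-0.048, 95% interval -0.27 to 0.18). Pofut2, which adds fucose to thrombospondin repeats before secretion, was higher with a log2 fold change of 0.27 (with library totals alone 0.092, edgeR adjusted p = 0.24), and B3glct, which extends that fucose with glucose, was not called (-0.17, 95% interval -0.32 to -0.014, edgeR adjusted p = 0.065).

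**Figure D5:**
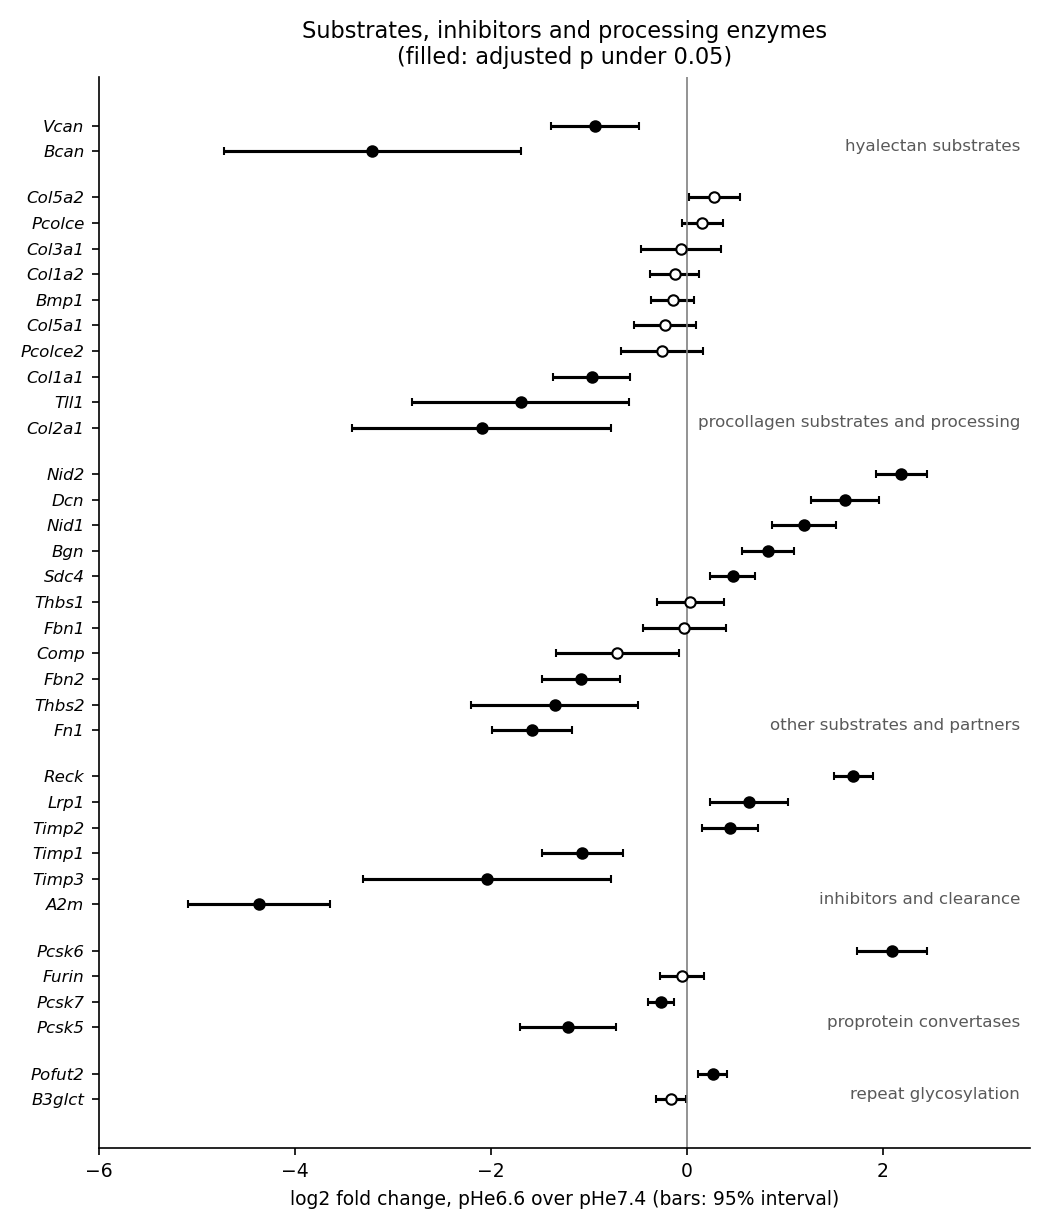
Log2 fold change (pHe6.6 over pHe7.4) with its 95% interval for tested genes of the substrates, inhibitors and processing enzymes of ADAMTS proteases. Filled circles have an edgeR adjusted p under 0.05: Vcan (-0.94) and Col1a1 (-0.97) lie below 0, Nid2 (2.19) and Pcsk6 (2.09) above it, and inhibitors lie on both sides between A2m (-4.37) and Reck (1.70).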

How the data were processed

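Poly(A) RNA libraries of PSCs, 3 per pHe, were described by the labels as biological replicates; p-values measure the spread between these samples. Reads had been aligned by the authors with HISAT2 2.2.1 to mm10 and assigned with featureCounts 2.0.1; the deposited values are raw counts per gene, and the annotation release was not given in the sources used here. A second deposited table holds the authors' limma comparison (fold changes and p-values), of which only the pairing of gene identifiers with names was used.

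Counts of genes reaching 0.5 CPM in 2 or more libraries were scaled by TMM and tested with edgeR 4.0.16 (robust glmQLFit and glmQLFTest; Benjamini-Hochberg, threshold 0.05), in R 4.3.3. Lengths, positions and motif codons came from GENCODE vM21, upstream windows from RefSeq. The method was tested on simulated counts. Alternatives were other scalings, DESeq2 1.42.0, limma-voom 3.58.1, glmTreat, other filters, a replicate block and leaving out libraries. All 9 members are named, and from each list of related genes up to the 6 called genes with the smallest adjusted p and any gene not called or not tested. Members and gene lists were chosen with earlier results of these data known. One result is not reported here.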

Additional observations from a re-analysis of the deposited data

How the results depend on the processing

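Over 162 alternative values for the 9 ADAMTS genes, 144 kept their direction and their side of the threshold, 9 lost the call, 4 gained it and 5 turned sign. Adamts5 kept its call in all 18 of its alternatives. Adamts12 gained the call with DESeq2, with a replicate block and without pHe7.4 B, alone or with pHe6.6 B. When each library was left out in turn, the log2 fold change ran between -0.0053 and 0.18 for Adamts7, -0.17 and 0.0071 for Adamts9, -0.062 and 0.63 for Adamts15, -0.19 and 0.071 for Col3a1, -0.096 and 0.14 for Thbs1, -0.19 and 0.12 for Fbn1, and -0.13 and 0.036 for Furin, all without a call in the full set. With library totals alone, which moved the median of all genes to -0.18, the sign turned for Adamts7 (-0.063), Pcolce (-0.018) and Thbs1 (-0.14); Thbs1 also turned with limma-voom (-0.061) and without both B libraries (-0.19). The cause of these turns was not tested.

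Tested against a log2 fold change of 0.58 (glmTreat), 1266 genes were higher and 1067 lower at pHe6.6, and of the lists 1 of the 9 ADAMTS genes was higher and 0 lower, 0 other ADAMTS proteases and 2 ADAMTS-like genes were higher, 1 hyalectan and 1 procollagen gene were lower, 3 other substrates and 1 inhibitor or clearance gene were higher, 1 convertase was lower and 0 glycosylation genes were higher; this test asks for a larger change by construction. With a cut at an absolute log2 fold change of 0.58 beside the adjusted p, 2284 genes were higher and 2238 lower, and 0 of the 9 ADAMTS genes were lower, 1 convertase was lower and 0 glycosylation genes were higher. With library totals alone, 6 procollagen genes were lower, 0 glycosylation genes were higher and 1 was lower, as was 1 with upper-quartile factors and 1 with limma-voom. DESeq2 called 1 ADAMTS-like gene lower and 1 procollagen gene higher, limma-voom called 1 ADAMTS-like gene lower, and 1 procollagen gene was higher with no filter on low values. Leaving out each library gave 1 to 2 lower among the 9 ADAMTS genes, 0 to 1 lower among ADAMTS-like genes and 1 to 4 lower among procollagen genes. With the longest transcript as length, the mean shares at pHe6.6 were 21.1% for Adamts1, 34.2% for Adamts2 and 28.0% for Adamts5, and at pHe7.4 22.3% for Adamts1, 35.9% for Adamts2, 6.5% for Adamts4 and 15.5% for Adamts5.

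Whether the letters A, B and C mark the same mice in both groups was not given in the sources used here. Deviations from the group means correlated by -0.063, -0.00037 and 0.23 across 15197 genes for the same-letter libraries A, B and C. Among the pHe6.6 libraries, C alone correlated best with its own letter. These correlations, from 3 libraries per pHe, cannot settle whether the letters mark pairs. Adding a replicate block gave 3806 genes higher and 3602 lower, and Adamts12 a log2 fold change of 0.66 with adjusted p = 0.036; it changed no other call among the 9 genes. With 3 libraries per pHe, changes of the size of the Adamts7, Adamts9 and Adamts15 intervals could not be resolved, and exact tests of 3 against 3 cannot go below p = 0.1.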

Other observations

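The ADAM proteases are membrane-anchored relatives of the ADAMTS enzymes. The 10 looked at here were chosen after values of these data had been seen. Of the 10, 6 were called higher and 2 lower at pHe6.6, where 26.4% of all genes tested were called higher and 25.9% lower. The median log2 fold change of the 10 was 0.32. Adam23, an ADAM without protease activity, had 247, 157 and 170 CPM in the pHe6.6 libraries A, B and C, against 71.0, 74.8 and 72.5 CPM in the pHe7.4 libraries, and was higher with a log2 fold change of 1.39 ± 0.17 (SE, n = 3 each; edgeR adjusted p = 0.00069). Adam17, the enzyme that sheds tumour necrosis factor from the cell surface, had 229, 179 and 201 CPM in the pHe6.6 libraries, against 118, 131 and 127 CPM in the pHe7.4 libraries (log2 fold change 0.70). Its relative Adam10 was lower, with 159 to 171 CPM at pHe6.6 and 190 to 210 CPM at pHe7.4 (log2 fold change -0.24). Adam12, known from activated mesenchymal cells, was lower too, with 255 to 298 CPM at pHe6.6 and 343 to 507 CPM at pHe7.4 (log2 fold change -0.68). In each of these genes the libraries of both groups did not overlap, as for 63.2% of all genes tested. Adam8 (log2 fold change 0.67), Adam9 (0.23), Adam19 (0.41) and Adam33 (0.70) were higher, and Adam15 and Adam22 were not called.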
